A study of Saccharomyces cerevisiae with 10 samples.

Results

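The genes of the cytosolic ribosome of budding yeast, Saccharomyces cerevisiae, were taken by name: every feature called RPL, RPS or RPP followed by a number, with or without a copy letter A or B, in both deposited tables. The pattern found 138 of 6677 features. Of these, 76 encode proteins of the large subunit, 56 encode proteins of the small subunit and 5 encode proteins of the stalk, the flexible arm of the large subunit. The remaining feature, RPP1, encodes a subunit of the nuclear enzyme RNase P and is no ribosomal protein, so 137 genes answer to the description. Among them were 59 pairs of A and B copies and 19 genes with no second copy.

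RNA crosslinked to a tagged protein was sequenced from nuclear RNA by PAR-CLIP, in which cells take up a photoreactive nucleoside and ultraviolet light then joins RNA to the proteins that touch it. The mapped protein was RNA polymerase II (Pol II) by the study's design text, and the labels name a Pol II subunit, Rpb2-HTB, for the Nrd1-FRB samples alone. The samples used fall into 3 groups of 2 libraries each: Nab3-FRB cells (strain NabFRB, 2875) given rapamycin for a time that is not given in the sources used here, Nrd1-FRB cells (strain Rpb2HTB_NrdFRB, 2771) given rapamycin for 45 min, and cells of strain NabCassette (2876) without rapamycin, titled WT. They are called the cassette here, and what the cassette holds is not given in the sources used here. An FRB tag lets rapamycin tie the tagged protein to an anchor, which carries it out of the nucleus and leaves its gene in place. Strain, tag and rapamycin changed together, so their parts in any difference cannot be told apart, and the reads of NAB3 or NRD1 do not show how complete the depletion was. Nab3-FRB cells without rapamycin and a Nab-HTB strain were not analysed here.

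A ribosome needs every one of its proteins in equal number, apart from the stalk proteins, and yeast makes them from genes that are among its most heavily transcribed. An ancient duplication of the genome left most of them with a second copy, and they hold a large share of the introns of this species. Rap1, Fhl1, Ifh1 and Sfp1 drive these genes while nutrients last, and signalling through the rapamycin target kinase TOR sets their output. Nab3 and Nrd1 bind short motifs in new RNA, TCTT for Nab3 and GTAA or GTAG for Nrd1, and with the helicase Sen1 stop transcription of short noncoding RNAs, and on certain mRNA genes shortly after it begins. How the signal on ribosomal protein genes changes when either protein leaves the nucleus is the question the design puts to these genes.

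Library depth lay between 7395659 and 13428820 reads. Values are reads per gene divided by a size factor for each library, so they give a gene's part of a library and not an absolute amount: a gene that lost signal and a library in which other genes gained cannot be told apart. Levels are compared between genes per kb of gene span, introns included. All 138 genes entered every test, and the lowest count was 705 reads (RPS25A). The 2 Nrd1 libraries stood apart on these genes: library 1 was above library 2 at 130 of the 138, by a median of 0.21 on the log2 scale, while over all 6385 features tested it was above at 48.8%, with a median of -0.01. In the other groups the libraries lay close together, with a median gap of 0.00 between Nab3 libraries 2 and 3 (73 of 138 higher in library 2) and -0.02 between cassette libraries 1 and 2 (49 of 138 higher in library 1). The median changes after Nrd1 depletion are therefore also given without each Nrd1 library.

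Ribosomal protein genes, with RPP1 counted among them, took 8.76% and 8.67% of the reads of Nab3 libraries 2 and 3, 9.92% and 8.71% of those of Nrd1 libraries 1 and 2, and 9.27% and 9.36% of those of the cassette libraries. The widest 95% Wilson interval of these shares, that of Nrd1 library 1, ran from 9.895% to 9.938%, and such intervals cover counting error only, since PCR reads are not independent molecules. Both Nab3 libraries and Nrd1 library 2 lay below both cassette libraries, and Nrd1 library 1 lay above them. Large-subunit genes took 5.08% and 5.06% of Nab3 reads, 5.76% and 5.05% of Nrd1 reads, and 5.35% and 5.42% of cassette reads. Small-subunit genes took 3.44% and 3.38% of Nab3 reads, 3.89% and 3.42% of Nrd1 reads, and 3.67% and 3.69% of cassette reads. Stalk genes held between 0.222% and 0.255% of each library. With 2 libraries against 2, an exact permutation test of such a share could not pass a threshold of 0.05, so none is given.

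In the cassette libraries the median of these genes was 9186 normalised reads per kb, 9.63 times the 953.7 of all 6385 features tested. All 138 lay above that overall median, and 119 were among the 319 features that make up the top 5%. Levels spanned a wide range all the same, from 1837 per kb at RPL15B to 44320 at RPL41B (1650 at RPP1, the RNase P gene). The highest of all features tested was RPL41B, with 43478 and 45162 reads per kb in the cassette libraries. Among the 138 genes its copy RPL41A came next with 38297 and 37329, at rank 3 of all features. After it came RPL9B, a large-subunit protein, with 28617 and 31571, and RPS12, a small-subunit protein, with 28089 and 29101. The libraries of RPL9B and RPS12 overlapped, so their order does not hold beyond the spread, while RPL41B and RPL41A were apart from each other and from these. At the low end stood RPL15B with 1930 and 1745, RPS25A with 3867 and 3568, and RPS0A with 3885 and 3704, of which the last pair overlapped.

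**Figure D1:**
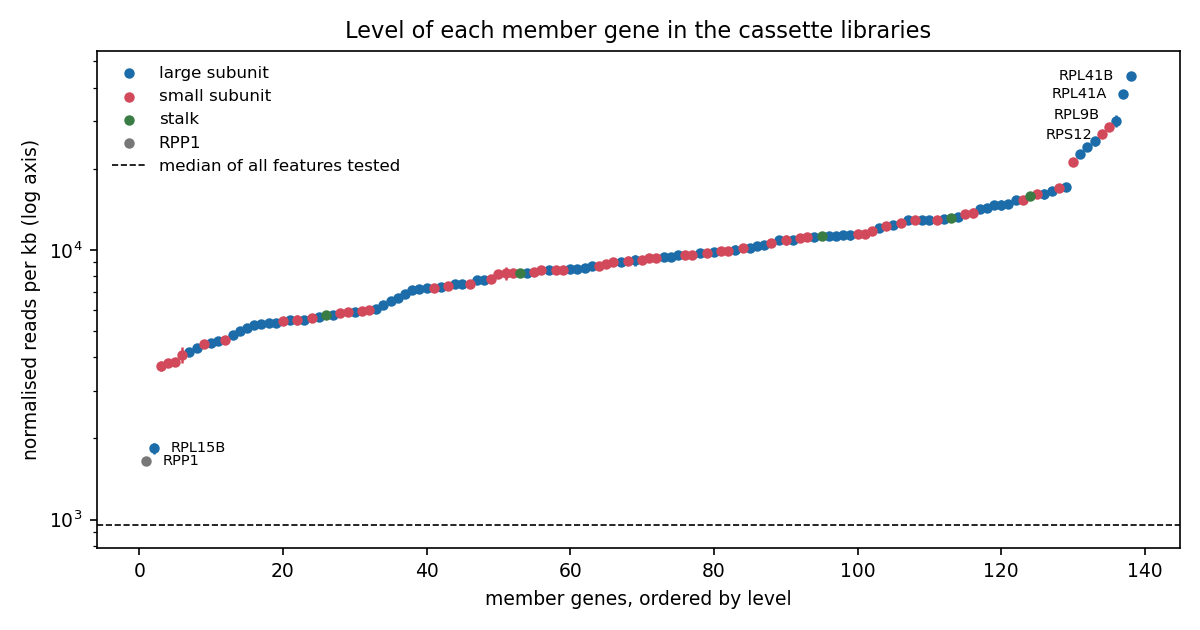
Level of each gene in the cassette libraries, in normalised reads per kb of gene on a log axis, with genes ordered by level, points at the mean of 2 libraries, and vertical lines over the range of the 2. All points lie above the dashed line at the median of all features tested (953.7), with RPL41B at 44320 on the right and RPL15B at 1837 and RPP1 at 1650 on the left.

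RPL41A and RPL41B encode the smallest protein of the ribosome, and each gene is 78 bases long with no intron. Both are shown whole, from the RefSeq sequence of assembly R64, because their high level rests on so short a span and because nearly all of it is shared. RPL41A lies at chrIV:130407-130484 and RPL41B at chrIV:221724-221801, both on the minus strand. The capital marks the base at which they differ, C9T from RPL41A to RPL41B, counted from 1 at the A of the start codon.
RPL41A: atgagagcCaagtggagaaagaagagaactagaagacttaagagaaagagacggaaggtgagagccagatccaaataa
RPL41B: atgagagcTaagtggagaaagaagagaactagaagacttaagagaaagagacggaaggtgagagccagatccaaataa
The copies are 98.7% identical over 78 bases, with 69 shared in 1 run. How the authors placed reads that match both, and how they counted reads that reach past a gene's ends, is not given in the sources used here, so the split between the copies is uncertain and so is the level per kb of so short a gene.

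The subunits were compared by the level of their median gene. The median large-subunit gene had 8718 and 8458 reads per kb in the Nab3 libraries, 9514 and 8608 in the Nrd1 libraries, and 9069 and 9573 in the cassette libraries. The median small-subunit gene had 8448 and 8296 in the Nab3 libraries, 9257 and 8031 in the Nrd1 libraries, and 9118 and 9176 in the cassette libraries. The ratio of these medians, large over small, was 1.03 and 1.02 after Nab3 depletion, 1.03 and 1.07 after Nrd1 depletion, and 0.995 and 1.04 in the cassette, so the groups overlapped. The stalk had a higher median, at 11263 in the cassette over its 5 genes, from 5754 at RPP2A to 15849 at RPP1A. Genes with no second copy had a median of 14741, against 8995 for A copies and 9115 for B copies, in the cassette libraries.

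After Nab3 depletion ribosomal protein genes had a median slightly below that of the cassette, and single genes of both subunits passed the test. By limma with Benjamini-Hochberg adjustment over all features and a threshold of 0.05, 34 of the 138 genes fell and 3 rose, or 24.6% and 2.17% of them (26.8% either way, against 39.7% of all features). Over all 6360 features tested 18.7% fell and 21.1% rose, so the share of rises was far below the background, and the share of falls above it in this fit but not in every setting, as given below. The median log2 fold change was -0.08 for these genes and -0.01 for all features. The medians of Nab3 libraries 2 and 3 taken singly against the cassette mean were -0.07 and -0.09, with 104 and 102 of the 138 genes below it. The 2 Nab3 libraries lay below both cassette libraries at 84 genes (60.9%, against 36.3% of all features) and above both at 19 (13.8%, against 34.7%).

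By class, 19 of 56 small-subunit genes fell (33.9%, against 18.7% of all features) and 3 rose (5.36%, against 21.1%), with a median of -0.11. Of 76 large-subunit genes 14 fell, or 18.4%, which is near the 18.7% of all features. In that class 0 rose by limma (1 at an unadjusted p below 0.05, 0 by edgeR and 0 by DESeq2), and the median was -0.05. Of the 5 stalk genes 1 fell, RPP2B, which encodes one of the acidic stalk proteins, and their median was -0.11. By edgeR 16 small-subunit and 14 large-subunit genes fell, against 18.2% of all features. By DESeq2 these were 14 and 11, against 12.0%. Whether the subunits differ was not tested, and both subunits span a range that crosses 0: -0.39 to 0.27 in the small subunit and -0.35 to 0.11 in the large.

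**Figure D2:**
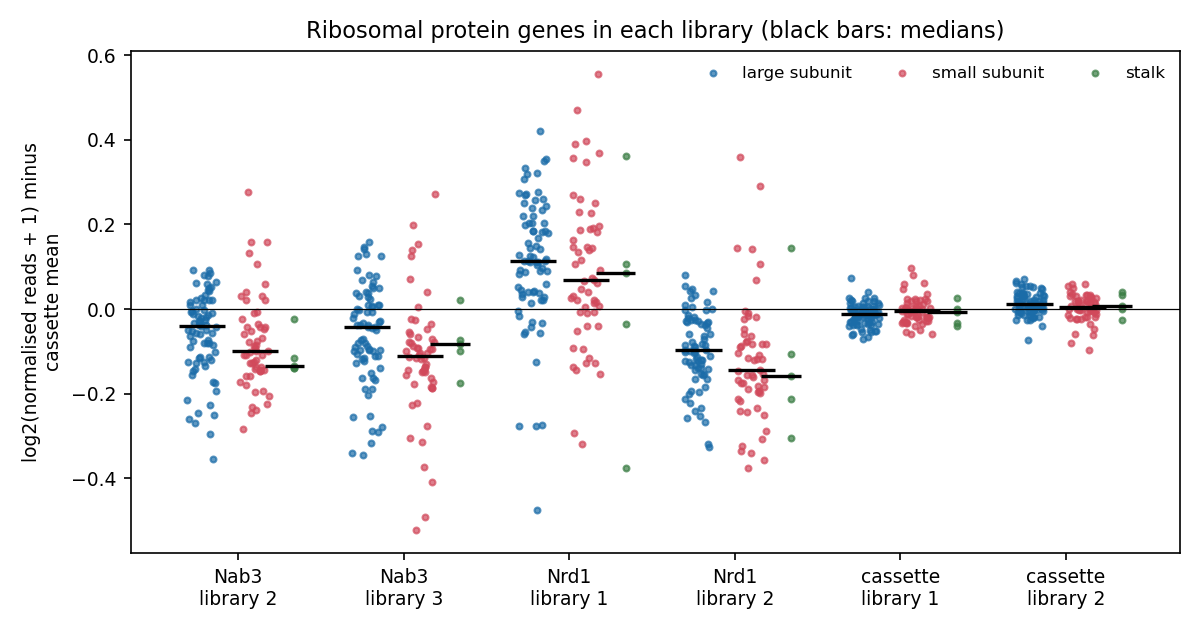
Each ribosomal protein gene in each library, as log2(normalised reads + 1) minus the mean of the cassette libraries, with large-subunit genes in blue, small-subunit genes in red, stalk genes in green, and black bars at the medians. The small-subunit medians of the Nab3 libraries lie at -0.10 and -0.11 and their large-subunit medians at -0.04, and the Nrd1 libraries lie on opposite sides of 0, with large-subunit medians of 0.11 in library 1 and -0.10 in library 2.

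The deepest falls were on both copies of RPS29, which encode a small zinc-binding protein of the small subunit. RPS29A had 1343 and 1162 normalised reads in the Nab3 libraries, against 1691 and 1582 in the cassette libraries. That is 1.31-fold lower, a log2 fold change of -0.39 ± 0.07 SE (limma adjusted p = 0.000613, and 3.93e-12 to 0.0598 over 13 alternatives). RPS29B had 1188 and 976 in the Nab3 libraries, against 1484 and 1326 in the cassette libraries, and fell by 0.38 on the log2 scale (adjusted p = 0.00272, and 2.46e-12 to 0.116 over the alternatives). In both copies the groups did not overlap, and both calls stood with each library left out.

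RPL37B, which encodes a zinc-finger protein of the large subunit, had 3824 and 3865 normalised reads in the Nab3 libraries, against 4893 in each of the cassette libraries. It fell 1.27-fold (-0.35 ± 0.05 SE, limma adjusted p = 7.41e-05, and 2.33e-07 to 0.0114 over 13 alternatives). The groups were far apart relative to their spread, and no alternative ended the call. RPL18B, a large-subunit protein with an intron, had 8247 and 7825 in the Nab3 libraries and 9577 and 10323 in the cassette libraries (-0.31 ± 0.06 SE, adjusted p = 0.000874, 2e-05 to 0.0443). RPL8B, also of the large subunit, had 2835 and 2793 in the Nab3 libraries and 3526 and 3435 in the cassette libraries (-0.31 ± 0.05 SE, adjusted p = 0.000262, 1.7e-06 to 0.0171). Neither gene's groups overlapped, and both calls stood under all alternatives. RPS25B, a small-subunit protein known for its part in initiation at internal entry sites, had 1123 and 1002 in the Nab3 libraries and 1424 and 1245 in the cassette libraries. Its fall of 0.33 on the log2 scale (adjusted p = 0.00374, 9.01e-08 to 0.101) missed the threshold when cassette library 1 was left out (-0.23, adjusted p = 0.0796).

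The 3 rises were all on small-subunit genes without an intron. RPS8A had 3273 and 3264 normalised reads in the Nab3 libraries, against 2665 and 2739 in the cassette libraries, and rose 1.21-fold (0.27 ± 0.05 SE, limma adjusted p = 0.000662, and 4.37e-05 to 0.0223 over 13 alternatives). Its copy RPS8B is 98.2% identical over its coding sequence, with 465 bases in 1 shared run, and had a log2 fold change of 0.12 (adjusted p = 0.0704), so reads may have been split between them. RPS26A and RPS26B encode a protein at the exit of the mRNA channel. RPS26A had 2244 and 2195 in the Nab3 libraries and 2031 and 1991 in the cassette libraries (0.14 ± 0.05 SE, adjusted p = 0.0468, 0.0332 to 0.282). RPS26B had 2207 and 2201 in the Nab3 libraries and 2064 and 1894 in the cassette libraries (0.16 ± 0.06 SE, adjusted p = 0.0435, 0.0328 to 0.447). Neither call was firm: that of RPS26A was lost without cassette library 1 (adjusted p = 0.19), cassette library 2 (0.282) or Nab3 library 2 (0.0877), and that of RPS26B without cassette library 2 (0.447).

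The other 28 genes that fell did so by less, from RPL43B at -0.27 to RPS22A at -0.13. Both copies fell in 5 pairs, RPL8, RPS16, RPS22, RPS25 and RPS29, and 1 copy alone passed the test in 17. The number of falls depended on single libraries: it was 18 without cassette library 1 (13.0%, against 10.2% of all features), 16 without cassette library 2 (11.6%, against 12.9%), 30 without Nab3 library 2 (21.7%, against 22.1%) and 22 without Nab3 library 3 (15.9%, against 18.1%), and 9 genes passed in all 4. It was 14 with no filter on low values (10.1%, against 9.27%) and 8 without a mean-variance trend (5.80%, against 11.3%). It was 31 with edgeR (22.5%, against 18.2%) and 25 with DESeq2 on recovered reads (18.1%, against 12.0%), and 51 with upper-quartile scaling (37.0%, against 23.4%) and 56 with equal totals (40.6%, against 22.9%). The share of falls was thus below that of all features in 4 of these settings. Across these settings the median of the set stayed below 0, between -0.11 and -0.07. The authors' deposited table called 18 of the 138 genes lower and 2 higher in this comparison (13.0% and 1.45%), against 11.5% and 15.4% of all 6677 features.

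**Figure D3:**
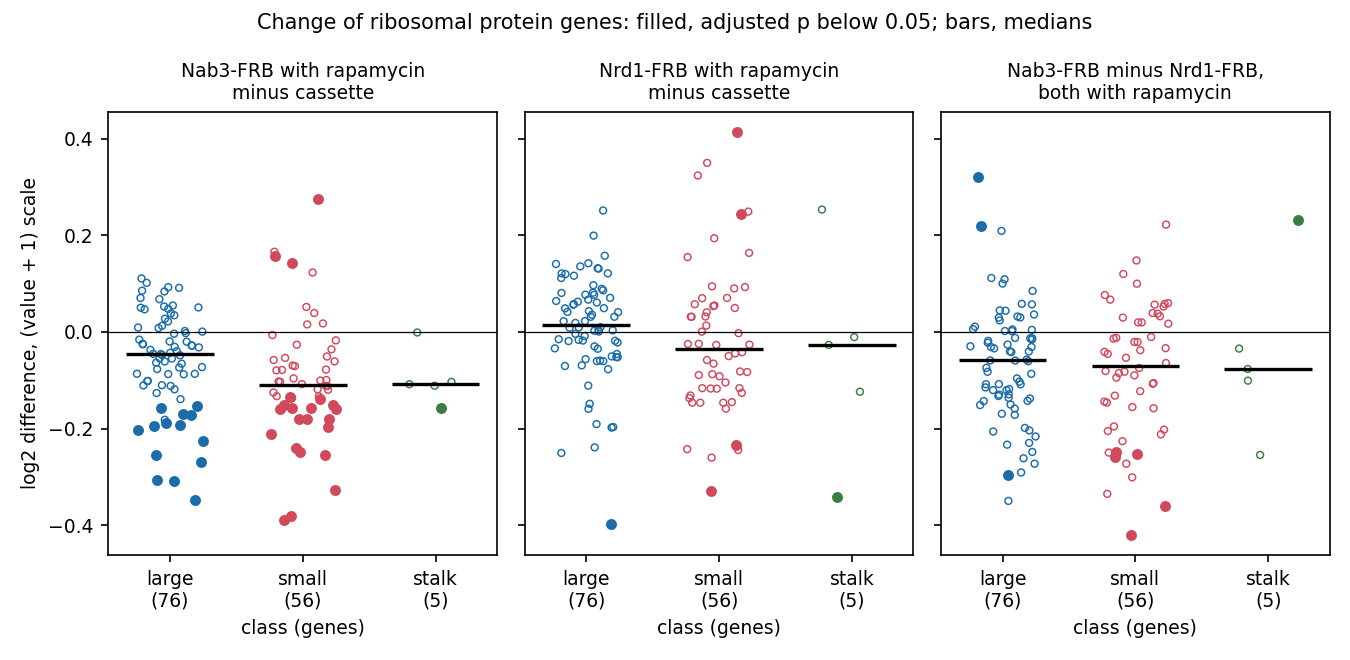
Log2 difference of each gene on the log2(value + 1) scale in the 3 comparisons, by class, with filled points at an adjusted p below 0.05 and bars at the medians. In the Nab3 panel 19 small-subunit and 14 large-subunit genes are filled below 0. In the Nrd1 panel 6 ribosomal protein genes are filled (RPP1 is not drawn), and in the panel of the difference 9.

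After Nrd1 depletion few ribosomal protein genes passed the same test, and the libraries disagreed on the direction of the set. Of the 138 genes 4 fell and 3 rose, or 2.90% and 2.17% (5.07% either way, against 35.3% of all features), while 17.8% of all 6347 features fell and 17.5% rose. The RNase P gene RPP1 is 1 of the rises, and without it 2 of 137 genes rose (1.46%). The median log2 fold change was 0.00 for these genes, as for all features. The 2 Nrd1 libraries lay below both cassette libraries at 24 genes (17.4%, against 36.9% of all features) and above both at 13 (9.42%, against 35.8%). With Nrd1 library 2 as the only depleted library the median was -0.11, and 120 of the 138 genes lay below the cassette mean, against 50.5% of all features. With Nrd1 library 1 as the only one the median was 0.11, and 31 genes lay below it, against 50.8% of all features. No direction can therefore be given for the set. With either cassette library left out, the fit called fewer of these genes and also fewer of all features. Both comparisons use the same cassette libraries, so their results are not independent.

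At each of the 7 genes that passed, both Nrd1 libraries lay on the same side of the cassette libraries. RPL41A, shown above, had 2122 and 2364 normalised reads in the Nrd1 libraries, against 2987 and 2912 in the cassette libraries. It fell 1.32-fold (-0.40 ± 0.07 SE, limma adjusted p = 0.00567, and 7.8e-14 to 0.0646 over 14 alternatives), which no longer passed without cassette library 1 (adjusted p = 0.0646). RPL41B, with 2859 and 3177 in the Nrd1 libraries and 3391 and 3523 in the cassette libraries, had a log2 fold change of -0.20 that did not pass (adjusted p = 0.0624). The groups did not overlap at either copy.

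RPP1A, which encodes an acidic stalk protein, had 3919 and 4116 normalised reads in the Nrd1 libraries, against 5182 and 4993 in the cassette libraries. It fell by 0.34 on the log2 scale (SE 0.06, limma adjusted p = 0.00725, and 1.77e-08 to 0.102 over 14 alternatives), which no longer passed without cassette library 1 (adjusted p = 0.102) or 2 (0.0628). RPS31, which encodes ubiquitin fused to a small-subunit protein, had 9885 and 9753 in the Nrd1 libraries and 12070 and 12623 in the cassette libraries (-0.33 ± 0.09 SE, adjusted p = 0.028, 0.000142 to 0.243). RPS28A, a small-subunit protein, had 2834 and 3076 in the Nrd1 libraries and 3403 and 3540 in the cassette libraries (-0.23 ± 0.06 SE, adjusted p = 0.0299, 6.63e-06 to 0.228). Both calls were lost without cassette library 1 (adjusted p = 0.178 for RPS31 and 0.15 for RPS28A) or 2 (0.243 and 0.228). These 4 falls were on genes without an intron, and each had both Nrd1 libraries below both cassette libraries.

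Among the rises RPS26B had 2739 and 2537 normalised reads in the Nrd1 libraries, against 2064 and 1894 in the cassette libraries. It rose 1.33-fold (0.41 ± 0.07 SE, limma adjusted p = 0.00511, and 3.12e-13 to 0.0612 over 14 alternatives), which no longer passed without cassette library 2 (adjusted p = 0.0612). Its copy RPS26A had 2638 and 2166 in the Nrd1 libraries and 2031 and 1991 in the cassette libraries, and did not pass (0.25 ± 0.09 SE, adjusted p = 0.075). RPS8A had 3437 and 2983 in the Nrd1 libraries and 2665 and 2739 in the cassette libraries (0.24 ± 0.08 SE, adjusted p = 0.0453, 6.44e-08 to 0.254). RPP1, the RNase P subunit, had 1657 and 1706 in the Nrd1 libraries and 1463 and 1448 in the cassette libraries (0.21 ± 0.06 SE, adjusted p = 0.0301, 0.00187 to 0.227). The calls on RPS8A and RPP1 were lost without cassette library 1 (adjusted p = 0.254 and 0.215) or 2 (0.169 and 0.227). A fit with 1 Nrd1 library takes its spread from the cassette libraries alone, so it cannot show whether a call holds between the Nrd1 libraries. Each of the 7 calls was lost when 1 or the other cassette library was left out, as given above. The authors' deposited table called 2 of the 138 genes higher and 6 lower after Nrd1 depletion (1.45% and 4.35%), against 11.4% and 11.8% of all 6677 features.

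The start regions of RPS8A and RPS26B, called higher in both comparisons, are shown with the motifs of both proteins, since these act near the start of a transcript. Each runs from 250 bases before to 50 bases after the start codon on the gene's strand, from the RefSeq sequence of assembly R64, with capitals at the Nab3 motif (TCTT) and at both Nrd1 motifs (GTAA or GTAG) on that strand. The RPS8A window (chrII:89076-89375, minus strand) holds 2 TCTT, 1 GTAA and 0 GTAG, and that of RPS26B (chrV:423702-424001, plus strand) holds 1 TCTT, 3 GTAA and 4 GTAG.
RPS8A: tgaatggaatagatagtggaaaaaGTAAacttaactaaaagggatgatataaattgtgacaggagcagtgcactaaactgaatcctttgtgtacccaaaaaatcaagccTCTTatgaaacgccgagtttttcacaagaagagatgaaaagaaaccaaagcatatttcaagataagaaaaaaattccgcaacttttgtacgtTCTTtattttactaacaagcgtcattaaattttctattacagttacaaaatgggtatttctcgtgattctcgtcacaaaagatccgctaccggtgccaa
RPS26B: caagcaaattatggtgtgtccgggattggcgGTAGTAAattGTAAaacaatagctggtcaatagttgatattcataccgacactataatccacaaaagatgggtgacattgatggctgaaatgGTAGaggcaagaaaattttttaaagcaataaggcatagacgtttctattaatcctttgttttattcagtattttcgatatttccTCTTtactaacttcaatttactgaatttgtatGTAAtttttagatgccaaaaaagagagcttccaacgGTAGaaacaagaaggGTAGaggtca
Matches to 4 letters are common by length alone, and they are given as a description of these windows.

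The stalk genes differed among themselves, with RPP1A as given above. RPP0, which encodes the protein that anchors the stalk, had 7603 and 7836 normalised reads in the Nab3 libraries, 9924 and 8542 in the Nrd1 libraries, and 7517 and 7938 in the cassette libraries. It passed in neither comparison (0.00, limma adjusted p = 0.991 after Nab3 depletion, and 0.25 ± 0.10 SE, adjusted p = 0.081 after Nrd1 depletion), though both Nrd1 libraries were above the cassette. RPP2B had 3969 and 3870 in the Nab3 libraries and 4371 and 4373 in the cassette libraries, and fell after Nab3 depletion (-0.16 ± 0.05 SE, adjusted p = 0.0232), which no longer held without cassette library 1 (adjusted p = 0.148), cassette library 2 (0.137) or Nab3 library 3 (0.0663). The acidic proteins RPP1B and RPP2A had log2 fold changes of -0.11 and -0.10 after Nab3 depletion and of -0.01 and -0.03 after Nrd1 depletion, and passed in neither.

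The difference between the depletions was tested by fitting the 6 libraries together. Of the 138 genes 6 were lower and 3 higher after Nab3 than after Nrd1 depletion, or 4.35% and 2.17%, against 8.91% and 12.1% of all 6385 features (6.52% either way, against 21.0%). The Nab3 libraries lay below both Nrd1 libraries at 32 genes (23.2%, against 30.1% of all features) and above both at 12 (8.70%, against 31.0%). The median difference was -0.06 for these genes and 0.00 for all features. It turned to 0.03 without Nrd1 library 1 and was -0.18 without Nrd1 library 2, so the direction of the set rests on which Nrd1 library is read. The lower genes were RPS0A, RPS14A, RPL37B, RPS26B, RPS27A and RPS22B, and the higher ones were RPL41A, RPP1A and RPL41B.

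RPL37B had 3824 and 3865 normalised reads in the Nab3 libraries, against 5032 and 4426 in the Nrd1 libraries, which lay on either side of the 4893 of the cassette libraries. Its difference was -0.30 ± 0.07 SE (limma adjusted p = 0.019, and 0.000291 to 0.102 over 15 alternatives). RPS14A, a small-subunit protein whose nearest upstream neighbour is the snoRNA gene SNR189 on the same strand, had 5839 and 5922 in the Nab3 libraries and 8067 and 7065 in the Nrd1 libraries (-0.36 ± 0.08 SE, adjusted p = 0.0119, 0.000105 to 0.0836). The cassette libraries, at 6656 and 6824, lay between the depletions at RPS14A. RPS22B, whose intron holds the snoRNA SNR44, had 8162 and 7554 in the Nab3 libraries and 9461 and 9209 in the Nrd1 libraries (-0.25 ± 0.07 SE, adjusted p = 0.04, 0.00499 to 0.254). RPS27A, a small-subunit protein, had 4306 and 4172 in the Nab3 libraries and 5318 and 4793 in the Nrd1 libraries (-0.25 ± 0.07 SE, adjusted p = 0.0287, 0.00117 to 0.157). At these 4 genes the Nab3 libraries lay below both Nrd1 libraries.

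RPS0A, needed for maturation of the small subunit, showed the largest difference, but its Nrd1 libraries were far apart: 4529 and 4246 normalised reads in the Nab3 libraries, against 6774 and 5086 in the Nrd1 libraries (-0.42 ± 0.12 SE, limma adjusted p = 0.0332, 1.03e-05 to 0.183). RPS26B was lower after Nab3 than after Nrd1 depletion by 0.26 on the log2 scale (SE 0.07, adjusted p = 0.0244, 0.0035 to 0.115), both being above the cassette. On the other side, RPL41A was higher after Nab3 depletion, with 2665 and 2934 in the Nab3 libraries and 2122 and 2364 in the Nrd1 libraries (0.32 ± 0.07 SE, adjusted p = 0.0155, 0.000703 to 0.116). RPL41B had 3444 and 3576 in the Nab3 libraries and 2859 and 3177 in the Nrd1 libraries (0.22 ± 0.07 SE, adjusted p = 0.0455, 0.00283 to 0.203). RPP1A had 4693 and 4745 in the Nab3 libraries and 3919 and 4116 in the Nrd1 libraries (0.23 ± 0.06 SE, adjusted p = 0.0243, 0.00476 to 0.126).

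None of these 9 differences passed with every library left out in turn. The cassette libraries do not enter the difference itself, only the spread and filter of this fit, so leaving 1 out changes no difference. Without Nab3 library 3 the adjusted p lay at 0.0826 for RPS14A, 0.0984 for RPL37B, 0.115 for RPS26B, 0.116 for RPL41A, 0.126 for RPP1A, 0.157 for RPS27A, 0.183 for RPS0A, 0.203 for RPL41B and 0.254 for RPS22B. Without Nab3 library 2 all but RPL41A were lost, with adjusted p values from 0.0836 (RPS14A) to 0.116 (RPL41B). Without cassette library 1, RPL37B, RPL41B, RPP1A, RPS0A, RPS22B and RPS27A were lost (0.0503 to 0.0986), and without cassette library 2 the same 6 (0.0505 to 0.0989). Without Nrd1 library 1, RPL41B (0.116) and RPS27A (0.0514) were lost.

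The A and B copies of a pair often differed in level, and their order was steady across libraries. Copy A was above copy B per kb in all 6 libraries in 26 of 59 pairs, and copy B was above copy A in all 6 in 24. In the other 9 the order changed between libraries. In the cassette 7 pairs were at least 2-fold apart, 24 at least 1.5-fold, and 20 less than 1.2-fold. The largest gap towards A was at RPS7, small-subunit proteins, with log2 ratios of A over B of 1.69 and 1.66 in the Nab3 libraries, 1.47 and 1.72 in the Nrd1 libraries, and 1.52 and 1.63 in the cassette libraries. The largest towards B was at RPL9, with -1.62 and -1.81 in the Nab3 libraries, -1.37 and -1.62 in the Nrd1 libraries, and -1.67 and -1.81 in the cassette libraries. RPL15, RPS28 and RPL37 followed on the A side, at 2.87-fold, 1.87-fold and 1.78-fold in the cassette, and RPP2, RPL36 and RPS14 on the B side, at 2.28-fold, 2.26-fold and 2.26-fold. Copies can differ in intron length, so gaps and orders depend on the division by span. In normalised reads RPL36A and RPL36B had cassette means of 4967 and 7936. The order turned at RPS22A and RPS22B (4839 and 9330) and at RPP1A and RPP1B (5088 and 7006), pairs counted above as A over B. The coding sequences of the pairs were between 68.2% (RPP1A and RPP1B) and 99.4% (RPL1A and RPL1B) identical, with a median of 93.2%. The 8 pairs of at least 98% identity had a median absolute log2 ratio of 0.22, against 0.49 over all pairs, and how reads common to both copies were counted is not known.

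**Figure D4:**
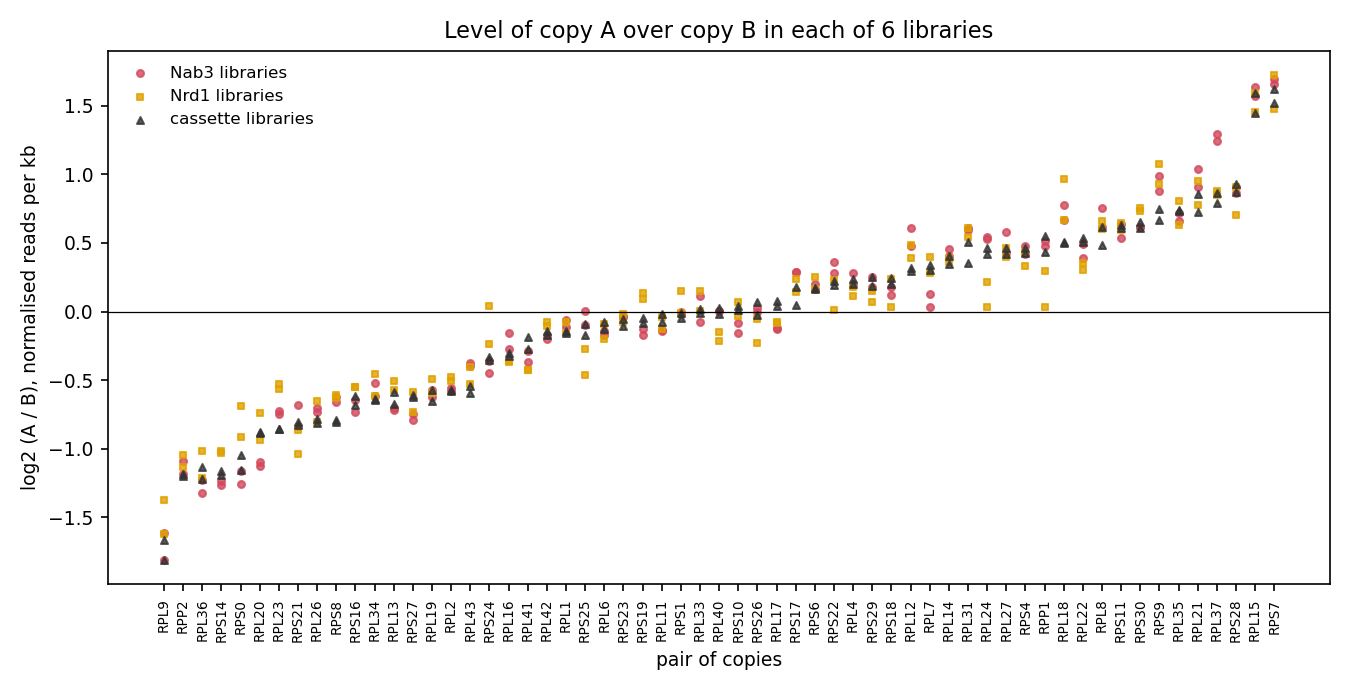
Log2 ratio of copy A over copy B, in normalised reads per kb, in each of 6 libraries for 59 pairs ordered by their mean over the cassette libraries. Circles are Nab3, squares Nrd1 and triangles cassette libraries. Points of a pair lie close together from RPL9 near -1.7 to RPS7 near 1.6, and RPL37 shows the Nab3 circles at 1.25 and 1.29 above all other points of the pair.

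The pair whose balance moved most after Nab3 depletion was RPL37. Its log2 ratio of A over B was 1.25 and 1.29 in the Nab3 libraries, 0.85 and 0.88 in the Nrd1 libraries, and 0.79 and 0.87 in the cassette libraries. Both Nab3 libraries stood above the other 4. RPL37A, with 8653 and 9047 normalised reads in the Nab3 libraries and 8090 and 8509 in the cassette libraries, did not pass the test (0.09 ± 0.06 SE, limma adjusted p = 0.212), while RPL37B fell. The log2 fold change of A minus that of B was 0.44 ± 0.08 SE after Nab3 depletion and 0.03 ± 0.12 SE after Nrd1 depletion, with no p given because pairs were picked by this value. The copies are 89.9% identical in coding sequence, with no shared run over 56 bases, and each has 1 intron after 7 coding bases, of 359 bases in RPL37A and 389 in RPL37B.

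The start regions of both copies are shown in the same way, since they flank the balance that moved: RPL37A at chrXII:522413-522712 on the plus strand, and RPL37B at chrIV:1450804-1451103 on the minus strand. The RPL37B window holds 2 TCTT, 4 GTAA and 2 GTAG on the gene strand, and that of RPL37A holds 0 TCTT, 1 GTAA and 5 GTAG.
RPL37A: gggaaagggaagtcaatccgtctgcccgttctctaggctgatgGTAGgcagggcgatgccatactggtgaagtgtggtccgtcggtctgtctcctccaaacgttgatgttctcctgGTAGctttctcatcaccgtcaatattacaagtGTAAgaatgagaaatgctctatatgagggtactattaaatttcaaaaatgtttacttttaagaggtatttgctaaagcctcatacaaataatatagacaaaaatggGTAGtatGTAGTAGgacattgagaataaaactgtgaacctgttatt
RPL37B: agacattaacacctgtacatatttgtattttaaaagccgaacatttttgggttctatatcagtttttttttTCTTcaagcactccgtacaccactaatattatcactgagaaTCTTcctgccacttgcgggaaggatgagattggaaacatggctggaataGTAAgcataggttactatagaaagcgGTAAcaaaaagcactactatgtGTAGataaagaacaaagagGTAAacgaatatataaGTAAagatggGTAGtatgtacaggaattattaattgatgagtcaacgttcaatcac
Only windows of named genes were counted on the gene strand, and no link between these letters and the change was tested.

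After Nab3 depletion the median absolute difference between the changes of A and B was 0.08 on the log2 scale, and 6 of 59 pairs were more than 0.2 apart. Besides RPL37 the widest were RPL7 (A minus B -0.25 ± 0.08 SE), RPL12 (0.24 ± 0.07), RPL20 (-0.23 ± 0.08) and RPS9 (0.22 ± 0.09). After Nrd1 depletion the median was 0.09, with 9 pairs more than 0.2 apart, led by the stalk pair RPP1A and RPP1B (-0.33 ± 0.11) and by RPL24 (-0.32 ± 0.14), RPL18 (0.31 ± 0.15), RPL23 (0.31 ± 0.17) and RPS0 (0.30 ± 0.16). The change of A was above that of B in 33 of 59 pairs after Nab3 depletion and in 35 after Nrd1 depletion, with no test of either count. By copy, 12 A copies (20.3%) and 15 B copies (25.4%) fell after Nab3 depletion, and 7 of the 19 genes without a second copy (36.8%), against 18.7% of all features.

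**Figure D5:**
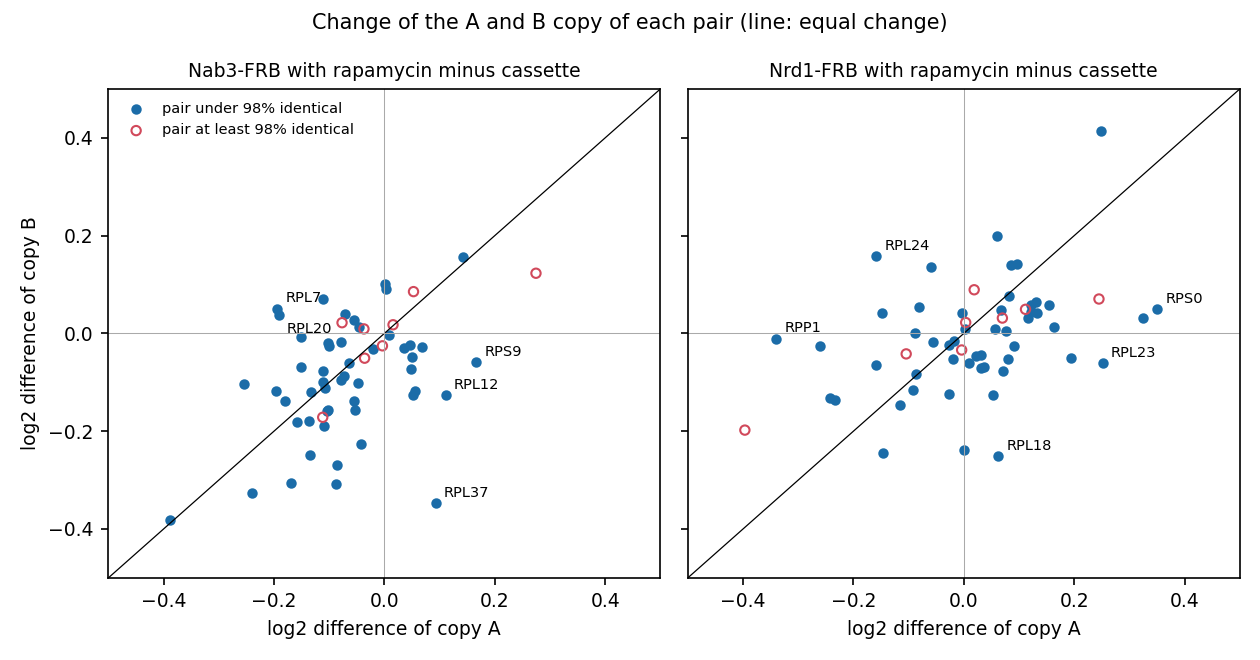
Log2 difference of copy B against that of copy A for 59 pairs, after Nab3 depletion on the left and Nrd1 depletion on the right, with open red circles for pairs at least 98% identical and the diagonal at equal change. The 5 pairs farthest from the diagonal are named, with RPL37 at 0.09 for A and -0.35 for B in the left panel.

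Genes known for feedback by their own protein gave mixed values. RPL30, whose protein blocks splicing of its own transcript, had 8924 and 8801 normalised reads in the Nab3 libraries, 9277 and 8443 in the Nrd1 libraries, and 9083 and 8987 in the cassette libraries, and passed no test (limma adjusted p = 0.715 after Nab3 and 0.81 after Nrd1 depletion). RPS14B, bound by its protein in the same way, had log2 fold changes of -0.12 (adjusted p = 0.153) and 0.01 (0.948), while its copy RPS14A fell after Nab3 depletion (-0.20 ± 0.05 SE, adjusted p = 0.00791, 0.00229 to 0.0814 over 13 alternatives), which no longer passed without cassette library 2 (0.0814). RPS9A, of a pair under splicing feedback, had 16511 and 17286 in the Nab3 libraries, 19283 and 18421 in the Nrd1 libraries, and 14444 and 15697 in the cassette libraries. All 4 depleted libraries were above both cassette libraries, yet neither difference passed (0.17 ± 0.07 SE, adjusted p = 0.0586, and 0.32 ± 0.12 SE, adjusted p = 0.0744). RPS28B, RPL22A, RPL22B, RPL2A and RPL2B lay between -0.14 and 0.14 in both comparisons and did not pass. The ubiquitin fusions RPL40A and RPL40B did not pass either, at -0.06 each after Nab3 depletion and at -0.15 and 0.04 after Nrd1 depletion.

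Introns split these genes into 89 with and 49 without, and calls are given for each, with no test of the difference between them. Over all features 18.7% fell and 21.1% rose in the Nab3 comparison, against 17.8% and 17.5% in the Nrd1 comparison. After Nab3 depletion 17 of 89 genes with an intron fell and 0 rose by limma (1 at an unadjusted p below 0.05, 0 by edgeR and 1 by DESeq2; median -0.06), and 17 of 49 without fell and 3 rose (median -0.11). Within the subunits, 10 of 36 small-subunit genes with an intron and 9 of 20 without fell, and 7 of 52 large-subunit genes with an intron and 7 of 24 without. After Nrd1 depletion all 7 called genes, RPP1 among them, were without an intron (3 higher, 4 lower, of 49) and of 89 with an intron 0 rose and 0 fell by limma. At an unadjusted p below 0.05 these were 2 and 1, by edgeR 1 and 0, and by DESeq2 2 and 1. Of the 46 shortest genes 35 had no intron, against 6 of the 46 longest, and the parts of intron and length were not tested. Among the 46 shortest genes 3 rose and 13 fell after Nab3 depletion, and among the 46 longest 0 rose and 8 fell. Across the 138 genes, which share libraries and depth and are not independent, the log2 fold change after Nrd1 depletion had a Pearson r of -0.49 (Spearman rho -0.46) with log2 cassette level per kb and of 0.46 (0.41) with log2 gene length. After Nab3 depletion these were -0.03 (-0.01) and 0.21 (0.25). The cassette level enters both axes of the first relation. Neither these relations nor the intron counts were computed for each Nrd1 library alone, though the Nrd1 libraries differed on these genes.

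Of the genes with a snoRNA in an intron, RPL7A (SNR39) had 8722 and 8019 normalised reads in the Nab3 libraries, against 9423 and 9721 in the cassette libraries, and fell (-0.19 ± 0.06 SE, limma adjusted p = 0.0176, 0.00308 to 0.16 over 13 alternatives). It did not pass when cassette library 2 was left out (adjusted p = 0.101) or Nab3 library 3 (0.16). Its copy RPL7B (SNR59), with 7461 and 7330 in the Nab3 libraries and 7121 and 7158 in the cassette libraries, did not pass (0.05 ± 0.05 SE, adjusted p = 0.474). RPS22B (SNR44), with 9259 and 9401 in the cassette libraries, fell after Nab3 depletion (-0.25 ± 0.06 SE, adjusted p = 0.00332, 0.000267 to 0.0528). Since the gene spans include introns, reads of a snoRNA or its precursor can be part of these values. RPL7A also has a snoRNA gene as its nearest upstream neighbour on the same strand, SNR39B at 377 bases. RPS14A likewise has SNR189, at 389 bases. Whether an upstream snoRNA gene plays a part was not tested.

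Promoter windows of the same 300 bases were searched on both strands. The Rap1-like motif CCCNNACA was found in 17 of 138 (12.3%), against 6.65% of 6001 promoters, and in the 600 bases before the start codon in 70 (50.7%), against 15.2% of 5999. The PAC-like motif CGATGAG, of genes for ribosome assembly, was found in 1 (0.725%), against 7.02%. TCTT was in all 138 and in 99.4%, GTAA in 94.2% and 94.7%, and GTAG in 76.8% and 80.2%. So short a motif is in nearly every window, and its presence cannot set these windows apart. On the gene strand over the whole span, TCTT had a median of 5.11 per kb in these genes and 4.57 in 5597 genes matched by symbol, and GTAA and GTAG together 5.90 and 5.24. Their density had a Pearson r of -0.06 (TCTT) and 0.07 (GTAA and GTAG) with the change after Nab3 depletion, and of -0.12 and 0.14 with that after Nrd1 depletion, over 138 genes.

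Genes that act on ribosomal proteins were read from the same fits. Of 10 regulators 4 rose and 1 fell after Nab3 depletion, and 4 rose and 0 fell after Nrd1 depletion (1 fell at an unadjusted limma p below 0.05, 0 by edgeR and 0 by DESeq2), with medians of 0.05 and 0.19. CRF1, which encodes a corepressor of ribosomal protein genes that is controlled by TOR, had 640 and 588 normalised reads in the Nab3 libraries, 637 and 696 in the Nrd1 libraries, and 224 and 212 in the cassette libraries. Every depleted library was far above the cassette. CRF1 rose in both comparisons (1.49 ± 0.10 SE, limma adjusted p = 2.69e-08, and 1.61 ± 0.11 SE, adjusted p = 0.000176), and no alternative ended either call. SFP1 rose in both (0.21, adjusted p = 0.00956, and 0.40, 0.00291), the first call being lost with either cassette library left out. DOT6 rose after Nab3 depletion (0.26, 0.00246) and TOD6 after Nrd1 depletion (0.50, 0.00188). Between the depletions 3 of 10 were lower after Nab3 (30.0%, against 8.91%): TOD6 (-0.55, 0.00104), RAP1 (-0.23, 0.0308) and SFP1 (-0.19, 0.0475). Those of RAP1 and SFP1 were lost with either cassette library left out, which did not change the differences themselves. FHL1, which encodes the factor that Ifh1 and Crf1 bind, had 1402 and 1375 in the Nab3 libraries, 1551 and 1475 in the Nrd1 libraries, and 1146 and 1225 in the cassette libraries (0.23, adjusted p = 0.0094, or 0.169 without cassette library 1, and 0.35, adjusted p = 0.00837, or 0.115 and 0.051 without cassette library 1 or 2). RAP1 fell after Nab3 depletion (-0.17, adjusted p = 0.0207), which no longer passed without cassette library 1 (0.203) or 2 (0.0989).

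Of 7 dedicated chaperones of ribosomal proteins 1 fell after Nab3 depletion (14.3%, against 18.7% of all features). After Nrd1 depletion 2 rose (28.6%, against 17.5%) and 1 fell (14.3%, against 17.8%). The rises were SYO1 and SQT1, chaperones of large-subunit proteins, and 1 of them passed by edgeR and 0 by DESeq2. Neither passed without cassette library 1 (adjusted p = 0.368 and 0.212) or 2 (0.0751 and 0.289). TSR2, the chaperone of Rps26, had 2009 and 1848 normalised reads in the Nab3 libraries, 1583 and 1933 in the Nrd1 libraries, and 2471 and 2262 in the cassette libraries. It fell in both comparisons (-0.30 ± 0.06 SE, limma adjusted p = 0.00164, and -0.43 ± 0.10 SE, adjusted p = 0.0156, lost without cassette library 1 at 0.119), whereas RPS26B rose in both. ASC1, which encodes a small-subunit protein outside the name pattern, had 7447 and 6675 in the Nab3 libraries, 8038 and 6834 in the Nrd1 libraries, and 9236 and 8773 in the cassette libraries. It fell after Nab3 depletion (-0.35 ± 0.06 SE, adjusted p = 0.000433) and did not pass after Nrd1 depletion (-0.28 ± 0.10 SE, adjusted p = 0.0639).

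Of 9 elongation factors 0 passed in any comparison by limma, edgeR or DESeq2, and 1 had an unadjusted limma p below 0.05, after Nab3 depletion, with medians of -0.04 after Nab3 depletion and 0.04 after Nrd1 depletion. Of 54 genes for the mitochondrial ribosome 21 fell after Nab3 depletion (38.9%, against 18.7% of all features; median -0.12) and 20 after Nrd1 depletion (37.0%, against 17.8%; median -0.17), with 0 rises in both by limma, edgeR and DESeq2, and 0 at an unadjusted p below 0.05. By edgeR 21 of the 54 fell in each comparison, against 18.2% of all features in each. By DESeq2 13 fell after Nab3 depletion (against 12.0% of all features) and 9 after Nrd1 depletion (against 13.3%), so the number of falls depended on the tool. Whether these genes differ from those of the cytosolic ribosome was not tested.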

How the data were processed

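Nuclear RNA crosslinked to protein was read in 6 libraries, with 2 per group. The deposited tables hold, for each feature, the authors' normalised signal per library (reads divided by a size factor), their log2 fold change, their p-values and the gene length. Per the submitters' processing notes, Bowtie 1.1.1, DESeq and the builds R64 and sacCer3 were used, which carry neither order nor settings. How reads were counted, on which strand, and what was done with multi-mapped reads is not given in the sources used here. Every value was a whole multiple of the worth of 1 read (100% within 0.01 reads), which gave the recovered reads, between 7395659 and 13428820 per library. The cassette libraries had the same reads in both tables, which were normalised separately, so the Nrd1 table was multiplied by 1.1807 before the 3 groups were set side by side.

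Differences were tested with limma 3.58.1 in R 4.3.3 on log2(value + 1), keeping features whose mean reached 10, using a mean-variance trend and Benjamini-Hochberg adjustment over all of them at 0.05. Fold changes are on that scale. Each depletion was fitted with the cassette from its own table, and the difference between depletions in 1 fit of 6 libraries. Alternatives were other pseudocounts, filters and scalings, no trend, leaving out each library, a replicate block, and edgeR 4.0.16 and DESeq2 1.42.0 on the recovered reads. Coding sequences were aligned with Biopython 1.88, and tables were handled with pandas 2.3.3 in Python 3.11.15. Gene spans, introns and sequences are from the RefSeq annotation of assembly R64, whose spans match the deposited lengths of all 138 genes. Named genes were those with the largest called changes in each direction, those called in the test of the difference, the highest and lowest levels, the pairs farthest apart in level or in change, the stalk genes, and genes with known feedback, ubiquitin fusions or snoRNAs. The genes and lists were chosen with earlier results of these data known. No label ties the libraries to separate cultures, and the p-values therefore reflect only how these libraries vary, which may be technical.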

Additional observations from a re-analysis of the deposited data

Results flagged for a closer look

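At 9 genes the test of the difference between the depletions passed, by limma with Benjamini-Hochberg adjustment over 6385 features. The log2 fold change after Nab3 depletion minus that after Nrd1 depletion was -0.42 at RPS0A, -0.36 at RPS14A, -0.30 at RPL37B, -0.26 at RPS26B, -0.25 at RPS27A and -0.25 at RPS22B. It was 0.32 at RPL41A, 0.23 at RPP1A and 0.22 at RPL41B. At RPS0A the Nrd1 libraries were 6774 and 5086 normalised reads, and the copies of RPL41 are 98.7% identical.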

How the results depend on the processing

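After Nab3 depletion the 3 rises became 1 with upper-quartile scaling, with equal totals and without a trend, and the 34 falls became 51, 56 and 8 under these settings and 14 with no filter. The medians became -0.11 (upper quartile) and -0.11 (equal totals) for all 138 genes, -0.075 and -0.077 for the large subunit, and -0.14 and -0.14 for the stalk. Leaving out 1 library, whose remaining partner is assumed to vary like the other group, gave 2 to 3 rises, 16 to 30 falls, and medians of -0.087 to -0.066 (all), -0.062 to -0.024 (large), -0.12 to -0.10 (small) and -0.13 to -0.08 (stalk). After Nrd1 depletion it gave 0 to 46 rises, 0 to 41 falls, and medians of -0.11 to 0.11, -0.10 to 0.11, -0.15 to 0.07 and -0.16 to 0.086. With no filter 2 fell. RPS25B was -0.23 without Nrd1 library 1 but 0.18 without Nrd1 library 2, and RPL8B was -0.18 and 0.27. For the difference it gave 0 to 6 higher, 0 to 66 lower, and medians of -0.18 to 0.034, -0.18 to 0.03, -0.18 to 0.04 and -0.20 to 0.054. There, 1 was higher with no filter, 0 without a trend and 1 without the pairs at least 98% identical, and 2 were lower with no filter, 11 with upper-quartile scaling, 10 with equal totals, 1 without a trend and 13 with DESeq2. The stalk median was -0.11 under both scalings. The highest counts with 1 library left out, after Nrd1 depletion and for the difference, came from fits with 1 Nrd1 library. Those fits also called more of all features in the same direction. With no spread within that group, these counts cannot show what is particular to ribosomal protein genes. With 1 library left out, pairs with A above B in all others numbered 26 each time, and with B above A 24 to 25. Without length correction these were 24 and 26, and without the pairs at least 98% identical 22 and 20. The ratio of large to small medians was 1.02 to 1.03 in Nab3, 1.03 to 1.07 in Nrd1 and 0.995 to 1.04 in cassette libraries, and 1.09 in Nab3 libraries without length correction. The Nrd1 and cassette libraries share replicate numbers, but the correlation of their deviations was 0.01 over 6347 features, and a replicate block gave 5 rises and 6 falls. No paired analysis was possible for Nab3 because the Nab3 columns carry the numbers 2 and 3, which the titles do not. The planned comparison of protein identity was not run. With 2 libraries per group, small changes may go undetected.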
